A study of Mus musculus with 11 samples.

Results

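The genes described here are 8 smooth muscle contractile genes, *Myh11*, *Acta2*, *Actg2*, *Des*, *Cnn1*, *Tagln*, *Lmod1* and *Smtn*, which were chosen by symbol as textbook components of the contractile apparatus and make up 8 of the 45777 genes in the table. They were examined in BALB/c mice whose shaved back and right ear received 62.5 mg of cream per day from 8 to 10 weeks of age. IMQ-treated mice received Aldara cream with 5% imiquimod (IMQ), which activates TLR7 and causes a psoriasis-like inflammation of the skin, and control mice received Vaseline. The sample annotation gives 5 to 8 days of application, and the study's methods give 5 to 7 days on the back alone. RNA was sequenced from 3 control and 3 IMQ libraries of skin (numbered 1 to 3 and 4 to 6) and from 3 control and 2 IMQ libraries of small intestine (7 to 9, 10 and 11). The annotation states that female or male mice were bought, gives neither the days of cream nor the segment of intestine for each library, and does not say which libraries came from the same mouse.

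Smooth muscle shortens when myosin heads pull on actin filaments, and contraction is switched on when a calcium-dependent kinase phosphorylates the regulatory light chain of myosin. In the small intestine this tissue forms the layers of the outer wall and the thin muscle under the mucosa. In skin it surrounds blood vessels and forms the small muscles that raise the hairs. The amount of muscle in a piece of tissue therefore depends in part on what was dissected, and each library is given by its own value. In bulk RNA, fewer smooth muscle cells and less contractile RNA per cell cannot be told apart.

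All 8 genes were detected in all 11 libraries, and the lowest count of any of them was 212 (*Cnn1* in IMQ-treated skin). The tissue labels matched their markers. The 13 intestinal epithelium genes summed to 10650 to 24020 FPKM (fragments scaled for transcript length and sequencing depth) in small intestine, and the 8 epidermal keratinocyte genes to 5081 to 13920 FPKM in skin against 0.511 to 1.47 FPKM in small intestine. One skin library stood apart. In control skin 2, all 13 intestinal epithelium genes were above 0, at a median of 1.03% of their control level in small intestine, against medians of 0% to 0.0360% in the other 5 skin libraries. If intestinal RNA were present there at that share, the intestine's own levels would amount to 0.229% (*Des*) to 8.70% (*Actg2*) of the level of the 8 genes in that library. Control skin 2 also had low hair follicle markers, with a sum of 18.3 FPKM over 9 genes against 541 and 926 FPKM in controls 1 and 3 and 11.4 to 20.1 FPKM in the IMQ libraries.

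Control small intestine had higher levels of 4 of the 8 genes than control skin and a lower level of 1. *Actg2*, *Cnn1*, *Myh11* and *Acta2* were higher and *Des* was lower (quasi-likelihood test of edgeR, adjusted by Benjamini-Hochberg), so 5 of 8 were called in a comparison in which 57% of the 18108 genes tested were called. *Tagln*, *Lmod1* and *Smtn* did not pass.

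*Actg2* encodes enteric smooth muscle γ-actin, one of the actins of visceral smooth muscle. Its level was 60.9, 108 and 104.7 FPKM in control small intestine and 8.66, 10.8 and 17.0 FPKM in control skin. Every intestinal control was above every skin control, and the log2 difference was 3.36 ± 0.46 (SE), or 10.3-fold (adjusted p = 8.48e-05, edgeR's quasi-likelihood test). *Cnn1* encodes calponin, an actin-binding regulator typical of differentiated smooth muscle, and had 29.4, 40.2 and 37.5 FPKM in small intestine against 2.64, 5.79 and 4.72 FPKM in skin. The groups did not overlap either, with a log2 difference of 3.25 ± 0.44 (adjusted p = 7.42e-05, edgeR). *Myh11*, the heavy chain of smooth muscle myosin, had 33.9, 65.1 and 59.5 FPKM in small intestine and 8.24, 18.1 and 6.88 FPKM in skin. The log2 difference of *Myh11* was 2.67 ± 0.48 (adjusted p = 0.000652, edgeR).

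*Acta2*, the vascular smooth muscle α-actin, differed less between the tissues than its enteric paralog. It had 88.6, 122.8 and 105.1 FPKM in control small intestine and 46.6, 51.9 and 97.6 FPKM in control skin, where library 3 lay above the lowest intestinal control. The log2 difference was 1.15 ± 0.35 (adjusted p = 0.0147, edgeR), and it was not called without control skin 1 (0.94, adjusted p = 0.0608, edgeR) or with limma (0.76, adjusted p = 0.0964, on log2(FPKM + 0.01)). Control skin had 4.81 to 5.74 FPKM of *Acta2* per FPKM of *Actg2*, whereas the control small intestine had 1.004 to 1.46. The order of the members by mean FPKM was accordingly not the same in the 2 tissues. In control small intestine it was *Acta2*, *Actg2*, *Tagln*, *Myh11*, *Des*, *Cnn1*, *Smtn* and *Lmod1*, and in control skin it was *Des*, *Acta2*, *Tagln*, *Smtn*, *Actg2*, *Myh11*, *Cnn1* and *Lmod1*. Both orders were the same by TPM.

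*Des* encodes desmin, the intermediate filament of muscle, which skeletal and cardiac muscle also contain. It was the only member significantly higher in control skin, with 181.5, 204.3 and 196.6 FPKM against 36.0, 54.1 and 46.5 FPKM in small intestine (log2 difference -1.65 ± 0.41, adjusted p = 0.00503, edgeR). Skeletal muscle markers were abundant in the same skin libraries. The sum of 16 skeletal muscle genes was 5668 to 8567 FPKM in control skin and 4236 to 8209 FPKM in IMQ-treated skin, none of them at 0, against 3.78 to 9.07 FPKM in small intestine, where 2 to 7 of the 16 were at 0. The part of skeletal muscle in the level of *Des* in skin was not tested.

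The other 3 members were not called between the tissues. *Tagln*, which encodes the actin-binding protein transgelin (SM22α), had 55.8, 89.7 and 82.2 FPKM in control small intestine and 25.9, 24.3 and 99.5 FPKM in control skin. Skin library 3 was above all 3 intestinal controls, and the log2 difference was 1.08 ± 0.51 (adjusted p = 0.0946, edgeR). Without skin library 3 it was called (adjusted p = 0.00154, edgeR). *Lmod1*, the leiomodin that nucleates actin filaments in smooth muscle, had 3.53, 5.17 and 4.31 FPKM in small intestine and 3.17, 4.60 and 2.71 FPKM in skin (log2 difference 0.74 ± 0.32, adjusted p = 0.0671, edgeR). *Smtn*, which encodes smoothelin, an actin-associated protein of contractile smooth muscle, was the other member with a lower mean in small intestine, at 13.1, 19.6 and 14.9 FPKM against 33.9, 17.9 and 54.1 FPKM in skin (log2 difference -0.69 ± 0.32, adjusted p = 0.0909, edgeR). Without control skin 2, the library with intestinal transcripts, both were called. *Lmod1* was then higher in small intestine (1.06, adjusted p = 0.0140) and *Smtn* lower (-0.98, adjusted p = 0.0102, both edgeR). Of the 11 fits with a library left out, *Lmod1* was called in 3 and *Smtn* in 1. At the share given above, intestinal RNA would amount to 0.970% (*Lmod1*) and 0.912% (*Smtn*) of their levels in control skin 2.

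**Figure D1:**
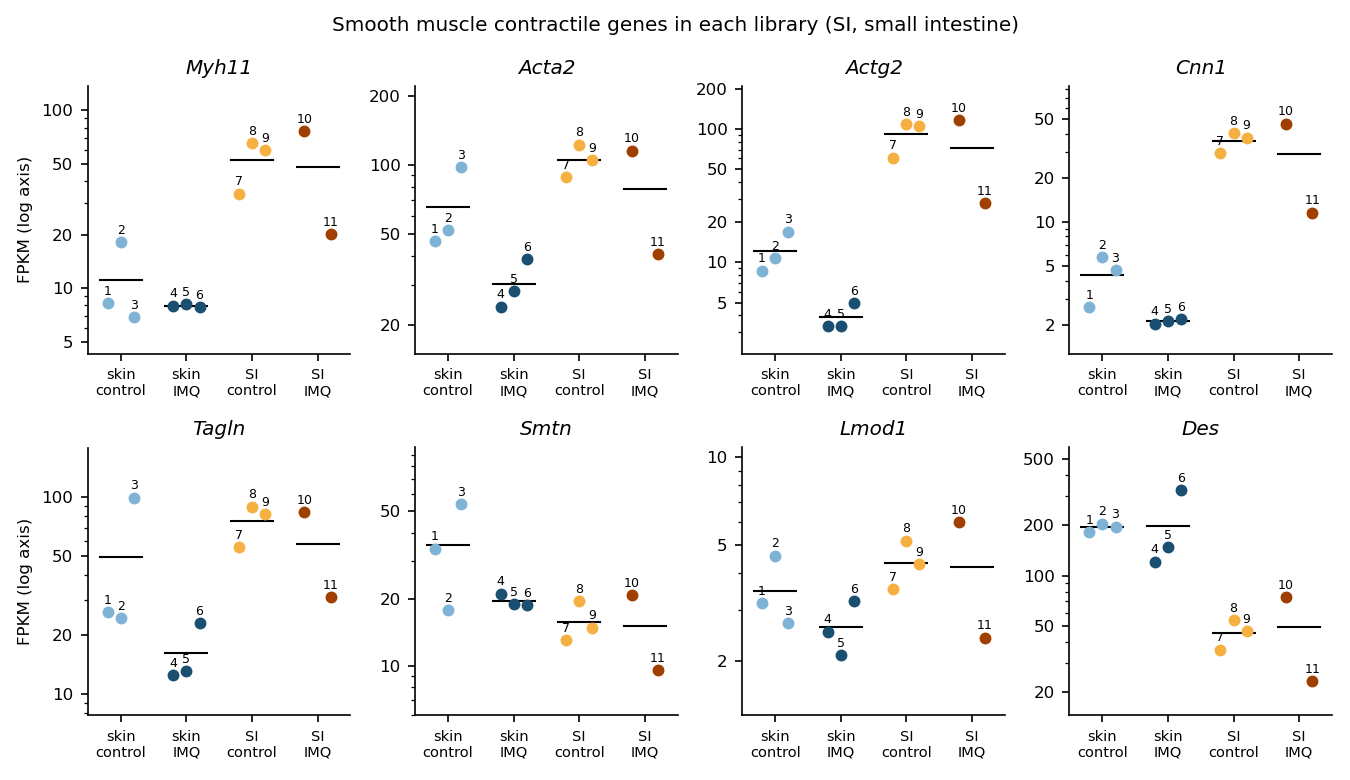
FPKM of the 8 genes in each of the 11 libraries on a log axis, with the library number beside each point and the group mean as a line. Intestinal library 11 is the lowest of the 5 intestinal points in all 8 panels, and skin IMQ libraries 4 to 6 lie below all 3 skin controls for *Acta2*, *Actg2*, *Cnn1* and *Tagln*.

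In the skin, 1 member, *Actg2*, was lower in IMQ-treated mice (1 of 8 members called by the quasi-likelihood test of edgeR, against 6.74% of the 20512 genes tested). The log2 fold change was below 0 for 7 of the 8 members, with a median of -0.85 against -0.01 for all genes tested. For 4 members, *Acta2*, *Actg2*, *Cnn1* and *Tagln*, every IMQ library was below every control library, a pattern shown by 13.3% of all genes tested.

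The actins are described first. *Actg2* had 595.4, 797.1 and 1156 normalized counts in control skin and 251.3, 240.6 and 351.0 in IMQ-treated skin. The highest treated library was below the lowest control, and the log2 fold change was -1.60 ± 0.29, or 3.02-fold lower (adjusted p = 0.0255, edgeR). It was no longer called without IMQ replicate 4 (adjusted p = 0.0945) or IMQ replicate 5 (adjusted p = 0.118, both edgeR), and the log2 fold change was then -1.52 and -1.49. Without control replicate 2 it was -1.64 (adjusted p = 0.0299, edgeR). *Acta2* had 6223, 7362 and 12890 normalized counts in control skin and 3489, 3966 and 5290 in IMQ-treated skin. Its groups did not overlap, but the log2 fold change of -1.05 ± 0.30 did not pass (adjusted p = 0.0891, edgeR).

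The promoter of *Acta2* is shown because a search for the CArG box, the site that serum response factor (SRF) binds in many contractile genes, matched in it and in no other of the members' promoters searched. RefSeq promoters (GRCm38.p6, 250 bases before to 50 after the start site) were at hand for *Acta2*, *Des*, *Cnn1*, *Lmod1* and *Smtn*. *Myl9*, the regulatory light chain of smooth muscle myosin, is shown beside it as the gene whose pattern across libraries was most like that of the 8 genes. Matches to the box, or to the box with 1 C or G in its A/T core, are in capitals, in 5′ to 3′ orientation.
*Acta2*, chr19:34255324-34255623, minus strand: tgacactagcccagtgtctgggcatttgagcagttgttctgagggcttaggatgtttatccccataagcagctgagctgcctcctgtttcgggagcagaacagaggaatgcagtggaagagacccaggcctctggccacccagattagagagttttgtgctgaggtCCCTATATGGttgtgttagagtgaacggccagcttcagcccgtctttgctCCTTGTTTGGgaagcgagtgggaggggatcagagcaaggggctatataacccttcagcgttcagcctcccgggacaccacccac
*Myl9*, chr2:156775214-156775513, plus strand: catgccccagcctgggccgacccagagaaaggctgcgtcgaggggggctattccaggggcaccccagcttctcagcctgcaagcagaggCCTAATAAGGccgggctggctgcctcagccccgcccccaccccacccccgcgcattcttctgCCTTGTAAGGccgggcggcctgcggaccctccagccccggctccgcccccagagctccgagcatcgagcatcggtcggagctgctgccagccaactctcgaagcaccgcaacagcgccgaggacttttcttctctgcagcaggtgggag
In *Acta2* the matches CCCTATATGG and CCTTGTTTGG began 84 and 34 bases before the start site, each with 1 change. That start site is the one of the printed window. The annotated span of *Acta2* on the minus strand begins farther upstream, at 34255585, so both matches lie inside the span. In *Myl9* the box CCTAATAAGG without a change began 161 bases before the start site, and CCTTGTAAGG with 1 change began 99 bases before it. The search read the strand as printed, which covers both strands because the box has the same form on each. The matches did not overlap each other. None of the 5 members' promoters held the box without a change, against 1.63% of all 32851 promoters, and 1 of 5 held it with at most 1 change, against 9.98%. Of the 17 partners of the contractile apparatus with a promoter, 4 held the unchanged box (*Myl9*, *Myl6*, *Vcl* and *Ldb3*), and *Srf* itself held 2. Such matches describe the letters in these windows and do not show binding.

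Calponin and transgelin, which bind actin filaments, had the same order of libraries by group. *Cnn1* had 271.4, 644.5 and 419.3 normalized counts in control skin and 231.7, 227.3 and 234.3 in IMQ-treated skin. The treated libraries lay within 1.08-fold of each other in FPKM, and all 3 were below the lowest control. The log2 fold change was -0.94 ± 0.31 (adjusted p = 0.131, edgeR). *Tagln* had 2152, 2164 and 8154 normalized counts in control skin and 1131, 1141 and 1947 in IMQ-treated skin. Control replicate 3 was 4.10 times the lowest control in FPKM, and the log2 fold change of -1.56 ± 0.56, nearly as large as that of *Actg2*, did not pass (adjusted p = 0.159, edgeR). In the mouse annotation (GENCODE M21), 62.4% of the exon bases of *Tagln* lie opposite *Gm48529*, and the strand setting of the authors' counting is not given in the sources used here. By DESeq2, *Acta2* (adjusted p = 0.0110), *Tagln* (adjusted p = 0.0255) and *Cnn1* (adjusted p = 0.0315) were called lower as well, so that 4 of 8 members passed. DESeq2 also called more genes in all, 3030 of the 20512 in the fit against 1382 by edgeR.

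The remaining members had overlapping groups in skin. *Smtn* had 5790, 3313 and 9148 normalized counts in control skin and 4006, 3440 and 3341 in IMQ-treated skin, so that control replicate 2 was below all treated libraries. The log2 fold change was -0.76 ± 0.34 (adjusted p = 0.237, edgeR), and without control replicate 2 it was -1.05 and was called (adjusted p = 0.0305, edgeR). *Myh11* had 2985, 6767 and 2478 normalized counts in control skin and 3109, 3124 and 2840 in IMQ-treated skin. Its log2 fold change of -0.43 ± 0.36 (adjusted p = 0.530, edgeR) rested on control replicate 2, without which it was 0.15 (adjusted p = 0.477). *Lmod1* had 653.3, 1019 and 551.8 normalized counts in controls and 570.4, 455.6 and 678.7 after IMQ (log2 fold change -0.38 ± 0.27, adjusted p = 0.447, edgeR).

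*Des* was the only member with a log2 fold change above 0 in skin, at 0.06 ± 0.35 (adjusted p = 0.941, edgeR). It had 29070, 35160 and 31130 normalized counts in control skin and 21190, 24970 and 53340 in IMQ-treated skin. IMQ replicate 6 was above all controls, and IMQ replicates 4 and 5 were below them. Without IMQ replicate 6 the log2 fold change was -0.46 (adjusted p = 0.209, edgeR). The sum of 16 skeletal muscle genes was also lowest in IMQ replicates 4 and 5 (4316 and 4236 FPKM) and reached 8209 FPKM in IMQ replicate 6, against 5668, 8567 and 6662 FPKM in the controls. Of the FPKM of the 8 members together, *Des* made up 41.03% to 76.7% in skin and 10.2% to 14.0% in small intestine.

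**Figure D2:**
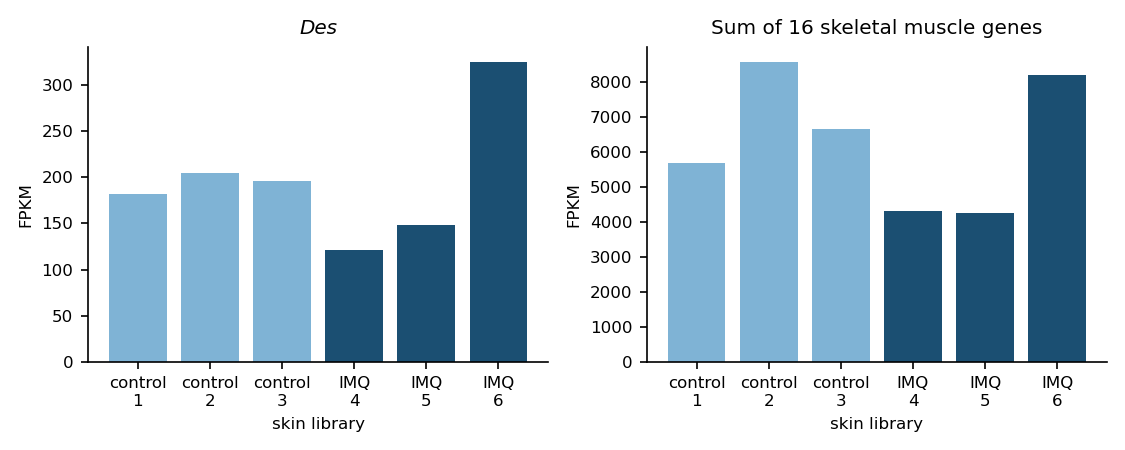
FPKM of *Des* (left) and the summed FPKM of 16 skeletal muscle genes (right) in the 3 control and 3 IMQ libraries of skin, 1 bar per library and no error bars. IMQ 6 has the highest *Des*, 325.2 FPKM, and 8209 FPKM of skeletal muscle genes, while IMQ 4 and 5 are lowest in both.

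The 19 other genes of the contractile apparatus, its partners, included the kinase gene *Mylk*. Of these, 1 was called in IMQ-treated skin, a share near the 6.74% of all genes tested. This gene, *Myl9*, had 2654, 3608 and 5079 normalized counts in controls and 1369, 1359 and 1925 after IMQ, and its log2 fold change was -1.29 ± 0.26 (adjusted p = 0.0362, edgeR). All 19 had log2 fold changes below 0, with a median of -0.25. A fall without a call was not particular to these genes. Of the 16 skeletal muscle genes, 14 were below 0 (median -0.3), and of the 7 fibroblast genes 6 were (median -0.24). In both of these lists 0 were called by edgeR. The 19 partners summed to 1653, 1879 and 2201 FPKM in controls and to 1244, 1374 and 2043 FPKM in IMQ replicates 4, 5 and 6. For the skeletal muscle genes the sums were 5668, 8567 and 6662 FPKM, then 4316, 4236 and 8209 FPKM. The part of skeletal muscle in the levels of the partners was not tested. Among 21 genes that control contraction (kinases, phosphatase subunits, receptors and channels), 0 were called by edgeR and 9 were below 0, with a median of 0.04. Of 10 transcription factors of smooth muscle, 1 was called, also near the share of all genes: *Tead1*, a TEAD-family factor, fell from 6735, 7335 and 6370 to 4713, 4483 and 3865 normalized counts (log2 fold change -0.65 ± 0.12, adjusted p = 0.0285, edgeR). *Srf* (0.04 ± 0.19) and *Myocd* (-0.01 ± 0.34), whose products together activate contractile genes, were not called (adjusted p = 0.924 and 0.995, edgeR).

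Markers of other cell types were compared in the same skin libraries, where 4.05% of all genes tested were called higher and 2.69% lower. Of 9 pericyte and mural cell genes, which mark the contractile cells of small vessels, *Higd1b* (log2 fold change 1.89 ± 0.30, adjusted p = 0.0181) and *Rgs5* (0.97 ± 0.20, adjusted p = 0.0389) rose and *Cspg4* (-1.71 ± 0.29, adjusted p = 0.0212, all edgeR) fell, and the summed level was 139 to 203 FPKM in controls and 138 to 205 FPKM after IMQ. The 6 endothelial genes summed to 39.6 to 49.2 FPKM in controls and 70.7 to 96.1 FPKM after IMQ, and 3 of 6 were called higher. The 6 leukocyte genes summed to 297 to 411 FPKM in controls and 588 to 826 FPKM after IMQ, and 4 of 6 were called higher. Of the 7 hair follicle genes tested, 2 were called lower. The 7 fibroblast genes summed to 2249 to 4528 FPKM in controls and 2555 to 2831 FPKM after IMQ with 0 called by edgeR, and 1 of 8 keratinocyte genes, *Krt14*, rose (log2 fold change 1.41 ± 0.31, adjusted p = 0.0447, edgeR). Among the controls, *Acta2*, *Actg2*, *Tagln* and *Smtn* were highest in replicate 3, which had the highest hair follicle sum, and *Myh11*, *Cnn1* and *Lmod1* were highest in replicate 2. The part of these cell types in the levels of the contractile genes was not tested.

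In the small intestine, no member was called between IMQ-treated and control mice by edgeR's quasi-likelihood test (0 of 8, against 2.95% of the 19965 genes tested). The adjusted p ran from 0.765 to 0.998 (edgeR), 0 of 8 had an unadjusted p under the same threshold, and DESeq2 called 0 as well. The log2 fold changes ran from -0.41 ± 0.37 (*Acta2*) to 0.13 ± 0.40 (*Des*), with a median of -0.20 against -0.02 for all genes. The groups overlapped for all 8.

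*Actg2* had 4703, 7733 and 8305 normalized counts in control small intestine and 8772 and 2266 in the treated libraries 10 and 11. *Myh11* had 13780, 24550 and 23950 in controls and 28880 and 8654 after IMQ. For both genes library 10 was above and library 11 below all controls. The same held for *Cnn1* (2690, 3642 and 3794 in controls, 4405 and 1252 after IMQ), *Des* (6478, 9026 and 8589, then 13090 and 4429), *Lmod1* (816.8, 1111 and 1026, then 1354 and 589.9) and *Smtn* (2501, 3463 and 2928, then 3871 and 1940). *Acta2* had 13310, 17120 and 16190 normalized counts in controls and 16900 and 6456 after IMQ, and *Tagln* had 5198, 7747 and 7864 and then 7653 and 3043. In these last genes library 10 lay within the controls and library 11 below them.

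All 8 members were lowest in library 11 among the 5 intestinal libraries, as were 32.5% of the genes tested, and 6 of 8 were highest in library 10, as were 21.5%. Library 10 had 2.17 (*Smtn*) to 4.18 (*Actg2*) times the FPKM of library 11. Among the 8470 genes with a mean of at least 5 FPKM in small intestine, the median ratio was 1.01 and 1.37% had a ratio of 2 or more. The SD of the log2 normalized counts of the 2 treated libraries was 0.70 to 1.38 for the 8 members, with a median of 1.04 against 0.14 for all genes. In the 3 intestinal controls the medians were 0.26 and 0.18.

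The members kept similar proportions to each other across the intestinal libraries. Relative to *Myh11*, the FPKM of the other 7 varied by 1.29-fold (*Actg2*) to 1.91-fold (*Smtn*) over the 5 intestinal libraries, while *Myh11* itself varied by 3.79-fold. In the 6 skin libraries the same ratios varied by 1.62-fold (*Lmod1*) to 10.8-fold (*Tagln*), and *Myh11* by 2.64-fold. By this measure the 8 genes did not vary as a single block in skin. In small intestine they rose and fell nearly together. The skin ratios depend on *Myh11* as the reference. *Acta2* and *Actg2* kept closer to each other, with 4.81 to 8.49 FPKM of *Acta2* per FPKM of *Actg2* over the 6 skin libraries. These ratios are a description over 5 and 6 libraries, and no test was made of the difference.

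Without library 11, the log2 fold change of IMQ in small intestine was above 0 for all 8 members, from 0.12 (*Acta2*) to 0.70 (*Des*), and 0 were called by edgeR (adjusted p = 0.395 to 0.952). Without library 10, it was between -0.61 (*Smtn*) and -1.60 (*Actg2*), and again 0 were called. In each of these fits the lone treated library is assumed to vary like the controls. The direction in small intestine thus rested on which of the 2 treated libraries was kept.

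Markers of other cell types were compared across the same 5 libraries. The 17 genes of enteric neurons, glia and interstitial cells of Cajal, which lie within and between the muscle layers, summed to 32.4, 46.9 and 35.5 FPKM in controls, 41.4 FPKM in library 10 and 17.4 FPKM in library 11. The 9 pericyte and mural cell genes summed to 48.8 to 72.5 FPKM in controls, 88.0 FPKM in library 10 and 37.4 FPKM in library 11. The most abundant of them, *Rgs5*, had 57.35 FPKM in library 10 and 18.84 FPKM in library 11, against 27.91 to 49.4 FPKM in controls. These genes did not all move together either, since 2 of the 8 tested were above all controls in both treated libraries. The sum of the 7 fibroblast genes was also lowest in library 11, at 144 FPKM against 177 to 196 FPKM, although not each of the 7 genes was lowest there. The sum of the 13 intestinal epithelium genes was highest there, at 24020 FPKM against 20870 FPKM in library 10 and 10650 to 16370 FPKM in controls, but the genes did not move together. *Apoa4*, an apolipoprotein of fat absorption, had 10230 FPKM in library 11 and 6630 FPKM in library 10 against 1078 to 3654 FPKM in controls, whereas 9 of the 13 had log2 fold changes below 0. The mean deviation of the list was 0.11 in library 10 and 0.13 in library 11. The 6 endothelial genes summed to 67.4 FPKM in library 10 and 56.4 FPKM in library 11, both above the 24.7 to 35.7 FPKM of the controls. All 6 had log2 fold changes above 0, but edgeR called only 1, *Pecam1*, at 31.66 to 37.69 FPKM against 8.655 to 11.16 FPKM in controls. The 6 leukocyte genes summed to 306 and 299 FPKM against 162 to 209 FPKM in controls. Of these, 3 were called higher, among them *Itgb2*, and 1 had a log2 fold change below 0. Of all genes tested, 2.775% were called higher. How much outer wall each piece of intestine held is not given in the sources used here, and its part in these values was not tested.

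**Figure D3:**
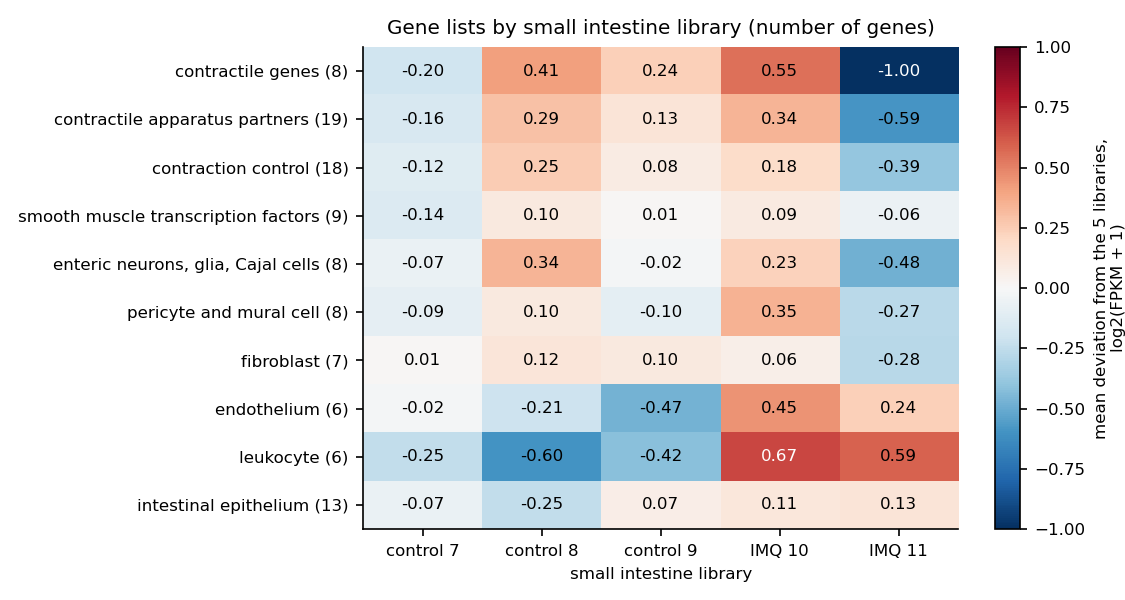
Mean deviation of the genes of each list from their mean over the 5 intestinal libraries, in log2(FPKM + 1), over genes with a mean of at least 1 FPKM in small intestine (number in parentheses). The contractile genes stand at 0.55 in library 10 and have the lowest value of the map in library 11, while the leukocyte genes stand at 0.67 in library 10 and 0.59 in library 11.

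The wider lists differed in how far they shared this split in small intestine. Of the 19 partners of the contractile apparatus, 0 were called by edgeR, 15 had log2 fold changes below 0 and the median was -0.13. Their mean deviation on the log2(FPKM + 1) scale was 0.34 in library 10 and -0.59 in library 11. Of the 17 partners with a mean of at least 5 FPKM, 9 had at least 2 times the level in library 10 that they had in library 11, with a median ratio of 2.12. Among the genes that control contraction this held for 1 of 10, with a median ratio of 1.26, and among the transcription factors for 0 of 5, with a median ratio of 0.990. Genes of these lists with a mean below 5 FPKM were left out of these counts. The control genes left out differed between the 2 treated libraries by 1.12-fold (*Chrm3*) to 6.82-fold (*Pln*), most of them by more than 2-fold. The transcription factors left out differed by 1.06-fold (*Mrtfb*) to 3.55-fold (*Myocd*), and only *Myocd*, at 0.234 and 0.830 FPKM, by more than 2-fold. The 21 genes that control contraction had 0 called and a median of -0.17, and the 10 transcription factors 0 called and a median of 0.02. For the transcription factors the deviations of libraries 10 and 11 were 0.09 and -0.06. *Myl6*, the essential light chain of myosin (log2 fold change -0.05 ± 0.15), *Tpm1*, a tropomyosin (-0.25 ± 0.19), *Myl9* (-0.17 ± 0.46) and *Mylk*, the kinase that phosphorylates the regulatory light chain (-0.17 ± 0.26), were the most abundant partners, and none was called (adjusted p = 0.724 to 0.945, edgeR).

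The difference between the tissues in the response to IMQ was tested as an interaction in a model of all 11 libraries. None of the 8 members was called by edgeR (0 of 8, against 2.55% of the 18108 genes tested), and 0 of 8 had an unadjusted p under the threshold. The log2 difference, intestine minus skin, was above 0 for all 8 and largest for *Actg2*, at 1.27 ± 0.63 (adjusted p = 0.349, edgeR), and *Tagln*, at 1.18 ± 0.76 (adjusted p = 0.482, edgeR). The fall of *Actg2* in skin was thus not shown to differ from the response in small intestine.

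**Figure D4:**
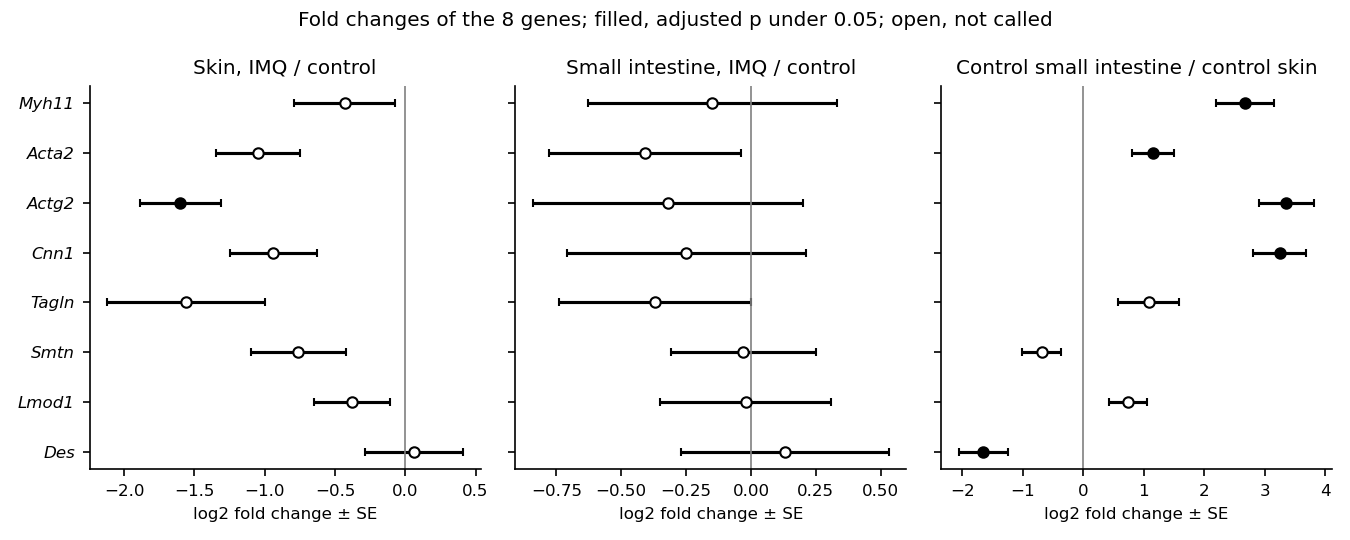
Log2 fold change of the 8 genes with its standard error for IMQ against control in skin (3 against 3 libraries) and in small intestine (2 against 3) and for control small intestine against control skin (3 against 3). Filled points had an adjusted p under 0.05 by edgeR: *Actg2* at -1.60 in skin, none in small intestine, and 5 of 8 between the tissues. The 3 panels have different scales.

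The genes most like the 8 members were sought over the 11 libraries after each tissue's mean had been removed, by Pearson's r between log2(FPKM + 1) and the mean of the members, among 7270 genes with a mean of at least 5 FPKM in each tissue. They were *Myl9* (r = 0.984), *Dmpk* (0.937), *Pdlim7* (0.932), *Csrp1* (0.923) and *Fermt2* (0.918), which encode the myosin light chain, a muscle protein kinase, a PDZ-LIM protein, a LIM protein and an adhesion adaptor. These correlations share libraries and depth and are given without a test. The FPKM of *Myl9* was 168.2 in library 10 and 46.6 in library 11 of the treated small intestine. Of the members themselves, *Actg2* and *Acta2* were closest to the mean (r = 0.982 and 0.961, the mean including them) and *Myh11* was farthest among the 6 that reached 5 FPKM in both tissues (r = 0.702), with r = 0.990 within the intestine and 0.204 within the skin.

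The members lie apart in the genome, on GRCm38: *Myh11* at chr16:14194527-14292188, *Acta2* at chr19:34240336-34255585, *Actg2* at chr6:83512909-83536251, *Cnn1* at chr9:22099221-22109221, *Tagln* at chr9:45929628-45936058, *Smtn* at chr11:3517522-3539292, *Lmod1* at chr1:135324813-135368065 and *Des* at chr1:75360292-75368579. The annotated transcripts of *Acta2*, *Actg2*, *Myh11*, *Cnn1* and *Lmod1* shared no window of 100 bases with another gene's transcripts, so for reads of that length their paralogs were distinct. For *Tagln*, 48.3% of such windows were shared, with *Gm48529* or *Pcsk7*, against 4.94% for *Smtn* and 3.28% for *Des*, in each case with overlapping genes on the opposite strand. By exon bases the overlap was 62.4% for *Tagln* with *Gm48529*, 16.3% for *Smtn* with *Gm11946* and 5.86% for *Des* with *Gm15179*. How far the values of these 3 genes are uncertain depends on the strand setting of the counting, which is not given.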

How the data were processed

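RNA of mouse skin and small intestine was extracted with QIAzol, and TruSeq Stranded mRNA libraries were sequenced as 100-bp paired-end reads. The submitters' processing notes name bcl2fastq 2.20.0, Trimmomatic, HISAT2 2.1.0, StringTie 2.1.3b and the build mm10. The authors deposited 1 table of whole-number read counts per gene without normalization. They also deposited FPKM, scaled for transcript length and depth, and TPM, which was used only for the order of the genes. The counting tool, its strand setting and its handling of reads with several matches are not given in the sources used here. Libraries held 44995414 to 58526384 counts, so the spread between libraries and not counting limited the precision. Libraries were assigned to groups by tissue and treatment from the annotation. Since nothing states that they came from separate mice, p-values measure the spread between these libraries, which may in part be technical.

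Counts were analyzed in R 4.3.3 with edgeR 4.0.16, limma 3.58.1 and DESeq2 1.42.0. A gene entered a fit if each of its libraries had 1 count or more, and genes were scaled by relative log expression. Tests were the quasi-likelihood tests of edgeR, Benjamini-Hochberg adjustment ran over all genes tested, and an adjusted p under 0.05 was called. Each tissue was fitted alone for IMQ against control, and all 11 libraries were fitted together for the interaction and for the tissue contrast, with the spread shared. Standard errors are the log2 fold change divided by the square root of F. Normalized counts are scaled to the average effective library of each tissue. The scripts were tested on simulated data. The 8 members, the gene lists and the tests were chosen with earlier results of these data known. All members are named. From each other list up to 4 genes are named, the called ones with the largest change or otherwise the most abundant. *Srf*, *Myocd*, *Vcl*, *Ldb3*, *Chrm3*, *Pln* and *Mrtfb* were added to these after their values had been seen. Alternatives were TMM, DESeq2, filterByExpr, no filter, limma on log2(FPKM + 0.01) and log2(FPKM + 1), other sets of libraries in the fit and each library left out. Of the hair follicle list, 1 gene is not analysed here.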

Additional observations from a re-analysis of the deposited data

How the results depend on the processing

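In skin, the number of members called was 4 with DESeq2, 1 under the other models, scalings and filters, and 0 to 2 with a library left out. The genes called there were 1382 of 20512 (6.74%) in the main fit and 3030 with DESeq2. They were 894 with limma on log2(FPKM + 1) and 258 to 2521 with a library left out. In small intestine they were 1206 with DESeq2 and 294 to 801 with a library left out, and for the interaction 1281 with DESeq2, 301 without a filter and 144 to 1072 with a library left out. *Actg2* in skin was called under all 7 other models, scalings and filters (adjusted p = 6.10e-06 to 0.0442, with edgeR, DESeq2 or limma) and in 4 of 6 fits with a library left out. With a library left out, the log2 fold change in skin ran from -0.70 to 0.15 for *Myh11* and from -0.46 to 0.30 for *Des*, which was -0.11 with limma on either scale. In small intestine it ran from -1.26 to 0.48 for *Myh11*, -1.26 to 0.12 for *Acta2*, -1.60 to 0.34 for *Actg2*, -1.43 to 0.38 for *Cnn1*, -1.18 to 0.14 for *Tagln*, -0.73 to 0.46 for *Lmod1*, -0.61 to 0.38 for *Smtn* and -0.85 to 0.70 for *Des*, which was -0.11 and -0.10 with limma. The interaction ran from -0.80 to 0.91 for *Myh11* (-0.04 and -0.05 with limma), -0.19 to 1.16 for *Acta2*, -0.90 to 0.63 for *Des*, -0.46 to 1.32 for *Cnn1* and -0.33 to 0.84 for *Lmod1*. No value reversed in the contrast of the control tissues, where 4 to 7 of 8 members were called. In those settings 9267 to 13010 genes were called, against 10321 of 18108 (57%) in the main fit. The causes of these changes were not tested. No paired analysis was possible because the groups share no replicate numbers. Standard errors of the members in small intestine were 0.28 to 0.52 on the log2 scale. Differences of that size between the groups, and larger ones, could not be told from the spread of the libraries. In skin, with 3 against 3 libraries, *Tagln* at -1.56 ± 0.56 was not called either (adjusted p = 0.159, edgeR).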
